A study of Mus musculus with 19 samples.

Results

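The 9 genes described here mark basal epithelial cells or build the hemidesmosome: Trp63, Ngfr, Dapl1, Col17a1, Lama3, Lamb3, Itga6, Itgb4 and Dst. They were chosen by symbol, and 9 of 9 were found among the 26221 rows of the normalized table and, with identical reads, among the 27179 genes of the count table. RNA was sequenced in bulk from cells sorted from the nose of naive mice with the transgene Tg(RP23-268L19-EGFP)2Mik on a B6.Cg background (ChAT(BAC)-eGFP mice). In these mice a bacterial artificial chromosome marks with eGFP the cells that use the regulatory region of choline acetyltransferase. All groups carried the transgene, lacked CD45 and stained for EpCAM, an epithelial surface protein. FSClow (9 libraries) held eGFP-positive brush cells of low forward and side scatter, FSChi (5 libraries) eGFP-positive cells of high scatter, and EpCAM (5 libraries) the eGFP-negative cells, which are a mixture of all other EpCAM-positive types. The age of the mice, and whether libraries came from separate animals, are not in the labels, and a p-value here therefore refers to the spread among the libraries, part of which may be technical.

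Basal cells sit on the basement membrane and renew the epithelium of the airway and of the olfactory mucosa, where the horizontal basal cell is the reserve stem cell. The transcription factor p63, from Trp63, holds them in the basal state. They are fastened by hemidesmosomes: the integrin made of the Itga6 and Itgb4 chains and the membrane collagen Col17a1 bind, outside the cell, a laminin that contains the Lama3 and Lamb3 chains, and inside it the plakins Dst and Plec link this complex to keratin filaments.

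Total counts ran from 1348428 (FSChi 2) to 7477695 (FSChi 3). Levels are given as CPM, counts relative to library size, scaled between libraries by the trimmed mean of M values. Summed CPM of 7 brush cell markers ran from 5750 to 8526 in FSClow and from 6775 to 11669 in FSChi, against 10.3 to 27.6 in EpCAM, so the labelled cell type was found in both eGFP-positive gates. The FSChi libraries were unlike each other in the markers of other cells. Their summed secretory markers, mostly Bpifa1, ran from 349 to 11623 CPM, and those of olfactory sensory neurons from 231 to 2632. The neuron sum includes Gng13, which alone ran from 139 to 460 CPM in FSChi and from 32.9 to 80.0 in EpCAM. The low end of the neuron sum in FSChi was thus mostly Gng13. For 14 of 19 libraries, the column of the count table correlated best with the library's own deposited file. The other 5 (FSChi 3, 4 and 5, EpCAM 1 and 2) correlated best with a file of another library of the same group. For FSChi 5 that match was weak (r = 0.9218, next best 0.9159), and its best file, FSChi 4, matched FSChi 3 better (0.9659). The file labelled FSChi 3 was nearly empty, with 6803 expected counts, so the FSChi 5 column may have no usable file. In bulk samples, fewer cells of a type and less RNA per cell cannot be told apart.

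RefSeq promoter entries (GRCm38.p6) were found for 5 of the 9 genes. The 250 bases before the start are shown for 3 of them, chosen because Col17a1 and Lamb3 were far lower in both eGFP-positive gates whereas Ngfr did not pass the test in any comparison. They lie at chr19:47692043-47692292 on the minus strand, chr1:193301744-193301993 on the plus strand (the first of 2 Lamb3 entries) and chr11:95587699-95587948 on the minus strand. The Lamb3 window, unlike those of Col17a1 and Ngfr, lies inside the gene span printed below, so it precedes an internal start. Capitals mark matches, on either strand, to CANNTG, the E-box core, and to GGGCGG, the GC box.
Col17a1: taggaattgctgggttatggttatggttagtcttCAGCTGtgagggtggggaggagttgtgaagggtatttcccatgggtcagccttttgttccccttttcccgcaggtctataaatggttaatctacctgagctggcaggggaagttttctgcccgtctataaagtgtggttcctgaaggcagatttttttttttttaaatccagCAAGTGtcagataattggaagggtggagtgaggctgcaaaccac
Lamb3: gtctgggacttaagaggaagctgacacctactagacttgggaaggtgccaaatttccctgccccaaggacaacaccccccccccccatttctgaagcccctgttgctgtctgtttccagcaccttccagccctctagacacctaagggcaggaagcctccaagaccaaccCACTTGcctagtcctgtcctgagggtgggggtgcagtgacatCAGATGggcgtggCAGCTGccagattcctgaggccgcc
Ngfr: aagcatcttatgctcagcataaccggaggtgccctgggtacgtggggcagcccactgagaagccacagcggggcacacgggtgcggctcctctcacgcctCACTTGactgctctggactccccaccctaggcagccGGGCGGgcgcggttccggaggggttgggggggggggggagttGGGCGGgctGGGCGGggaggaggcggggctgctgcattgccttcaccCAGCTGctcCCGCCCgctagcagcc
The Ngfr window held 4 matches to GGGCGG, and the Col17a1 and Lamb3 windows held 0. Dapl1, also called lower in both gates, had 1 match, and Dst had 4 in its first window and 0 in its second. A link between these matches and the levels was not tested. Among all 32851 promoter windows of that length, 32.7% held GGGCGG and 66.2% held CANNTG, of which these windows had 2 (Col17a1), 3 (Lamb3) and 2 (Ngfr). TGANTCA, the AP-1 site (in 6.75% of all windows), and the p53-family half-site (in 7.13%) had 0 matches in the windows of the 5 genes. A match of letters is not a binding site, and 0 matches says only that these letters are not in the window.

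Trp63, Lama3 and Lamb3 were nearly absent from FSClow, Col17a1, Itgb4 and Dapl1 were lower there than in EpCAM but detected, and Itga6, Dst and Ngfr were not called in that comparison. Against EpCAM, 6 of 9 were lower in FSClow, where 23.1% of the 13340 genes tested were called lower, and 7 of 9 in FSChi, where 12.2% were. In 6 of 9 every FSClow library was below every EpCAM library (15.6% of all genes), and in 6 of 9 every FSChi library was (11.3%). A gene was called at an adjusted p below 0.05 in edgeR's quasi-likelihood test, adjusted over all genes tested, and all 9 passed its filter on low counts. None was called higher than in EpCAM in FSClow (22.0% of all genes were) or in FSChi (13.5%). In FSChi against FSClow, 5 of 9 were higher (15.5% of all genes were) and 1 was lower (9.30% of all genes were). The median log2 fold change of the 9 was -3.53 for FSClow against EpCAM, -1.87 for FSChi against EpCAM and 1.66 for FSChi against FSClow, beside 0.05, -0.02 and -0.01 over all genes tested. These comparisons share libraries, so they are not independent of each other.

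**Figure D1:**
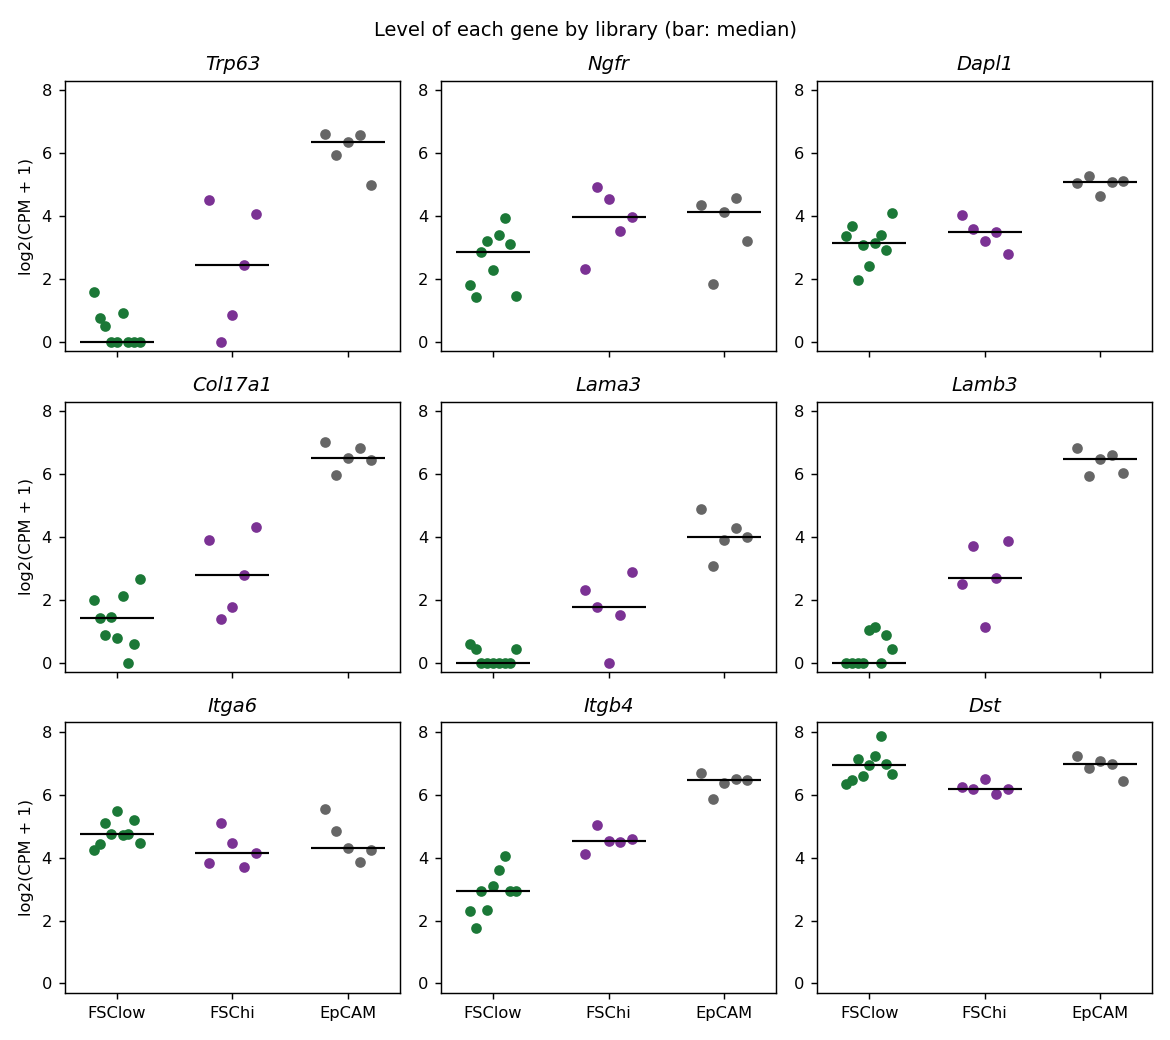
Level of each gene on the scale log2(CPM + 1), 1 point for each library and a bar at the median of 9 FSClow, 5 FSChi and 5 EpCAM libraries. Trp63, Col17a1, Lama3, Lamb3 and Itgb4 step up from FSClow to FSChi to EpCAM, whereas the Itga6 and Dst points of the groups overlap.

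Trp63 (Entrez gene 22061, chr16:25683763-25892088) was close to absent from FSClow. It had 10 counts in all 9 FSClow libraries together, with 0 in 5 of them, and its level ran from 0 through a median of 0 to 1.98 CPM. In the EpCAM libraries 1 to 5 it stood at 96.6, 61.1, 82.0, 94.1 and 30.9 CPM. In FSChi libraries 1 to 5 it stood at 21.9, 0, 0.806, 4.48 and 15.9 CPM. Every EpCAM library was above every eGFP-positive one, and FSChi ran from the FSClow level up to near the lowest EpCAM library. The count of 0 in FSChi 2, the shallowest library, allows up to 2.41 CPM (3 counts, for counting error only). The log2 fold change was -7.51 ± 0.78 (SE) for FSClow against EpCAM (adjusted p = 6.1e-08), -3.04 ± 0.70 for FSChi against EpCAM (adjusted p = 0.0028) and 4.47 ± 0.83 for FSChi against FSClow (adjusted p = 0.00039), all by edgeR. Without FSChi 1 the last of these was 3.78 and the value against EpCAM -3.82; without FSClow 1, the highest of its group, the differences from FSClow became 5.07 for FSChi and -8.11 against EpCAM.

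Ngfr (18053, chr11:95568818-95587698), the p75 neurotrophin receptor, did not follow Trp63. It stood at 19.4, 2.61, 16.5, 23.1 and 8.28 CPM in EpCAM 1 to 5, at 4.0, 29.7, 22.6, 10.6 and 14.9 in FSChi 1 to 5, and between 1.71 and 14.5 (median 6.29) in FSClow. All 3 groups overlapped. Ngfr differed, on the log2 scale, by -1.15 ± 0.50 for FSClow against EpCAM (edgeR, adjusted p = 0.065), 0.19 ± 0.57 for FSChi against EpCAM (0.85) and 1.34 ± 0.51 for FSChi against FSClow (0.056). The values involving FSClow passed the threshold in other fits: with relative log expression scaling they were -1.34 (adjusted p = 0.03) and 1.40 (adjusted p = 0.044), in DESeq2 -1.35 and 1.42, with upper-quartile scaling -1.23 and 1.37, and in libraries 1 to 5 of each group alone -1.70 and 1.84. They also passed on leaving out FSClow 7, FSChi 1 or EpCAM 2 (-1.47, -1.23 and -1.41 for FSClow against EpCAM; 1.59, 1.61 and 1.34 for FSChi against FSClow), so the Ngfr call turns on these choices. Ngfr is also a gene of ensheathing and Schwann glia. The 7 glial markers summed to 3.87 to 13.3 CPM in FSClow, 0 to 18.3 in FSChi and 2.86 to 12.4 in EpCAM, with Foxd3 at 0 in the last 2 groups. FSChi 2, which had the most Ngfr, had 0 glial marker counts, but as the shallowest library it allows up to 2.41 CPM at 0 counts, and the part of glia in the Ngfr values was not tested.

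Dapl1 (76747, chr2:59484653-59505020), a small protein named for its likeness to a death-associated protein, kept a clear level in the eGFP-positive cells. It ran from 2.94 to 16.2 CPM in FSClow (median 7.86), stood at 15.3, 11.2, 8.33, 10.3 and 6.02 in FSChi 1 to 5, and at 32.2, 37.8, 24.1, 33.2 and 33.6 in EpCAM 1 to 5. Both gates lay wholly below EpCAM and overlapped each other, at a log2 fold change of -1.92 ± 0.30 for FSClow (edgeR, adjusted p = 8.5e-06) and -1.65 ± 0.35 for FSChi (0.0012) against EpCAM, and 0.27 ± 0.31 between the gates (0.58).

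The laminin chains Lama3 and Lamb3, of the ligand of the hemidesmosome, were both nearly absent from FSClow. Lamb3 (16780, chr1:193294353-193343878) stood at 112, 60.6, 88.3, 97.2 and 64.5 CPM in EpCAM 1 to 5 and at 4.70, 12.1, 1.21, 5.41 and 13.8 in FSChi 1 to 5, and ran from 0 to 1.21 (median 0) in FSClow, where 5 of 9 libraries had no count. The 5 EpCAM libraries stood far above the rest, and the lowest FSChi library lay at the top of FSClow. Its log2 fold change was -7.46 ± 0.53 for FSClow against EpCAM (edgeR, adjusted p = 8.4e-11), -3.62 ± 0.51 for FSChi against EpCAM (1.1e-05) and 3.85 ± 0.59 for FSChi against FSClow (3.3e-05).

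Lama3 (16774, chr18:12333417-12583013) was lower throughout, at 28.7, 7.37, 14.0, 18.4 and 15.1 CPM in EpCAM 1 to 5 and at 4.0, 2.41, 0, 1.87 and 6.38 in FSChi 1 to 5. Its 9 FSClow libraries held 3 counts in all, against 470 in EpCAM and 48 in FSChi. Scaled for depth, Lama3 was 159 times higher in EpCAM than in FSClow (95% exact binomial interval 54.0 to 773, counting error only) and 21.3 times higher in FSChi than in FSClow (6.86 to 107). The edgeR adjusted p was 8.5e-08 for FSClow against EpCAM and 0.00053 for FSChi against FSClow. For FSChi against EpCAM the log2 fold change was -2.55 ± 0.68 (edgeR, adjusted p = 0.0074), and the groups did not overlap.

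Of the receptors, Itgb4 (192897, chr11:115974725-116008412) took 3 separate levels. It stood at 102, 56.8, 82.0, 88.8 and 88.0 CPM in EpCAM 1 to 5, at 16.2, 32.1, 22.3, 21.8 and 23.0 in FSChi 1 to 5, and between 2.39 and 15.7 (median 6.68) in FSClow. No library of one group reached into the next, which was the case for 1 of the 9 genes in FSChi against FSClow (3.98% of all genes were higher in every FSChi library). The log2 fold change was -3.53 ± 0.29 for FSClow against EpCAM (edgeR, adjusted p = 8e-10), -1.87 ± 0.33 for FSChi against EpCAM (0.00018) and 1.66 ± 0.30 for FSChi against FSClow (0.00019). Among those of the 9 genes called higher in FSChi than in FSClow, Itgb4 had the smallest SD in FSChi relative to its mean. It stood at 23.1 ± 5.73 CPM (SD, n = 5) beside 8.62 ± 9.77 for Trp63.

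Its partner Itga6 (16403, chr2:71786886-71858427), which also pairs with the Itgb1 chain, did not pass the test anywhere. It ran from 17.8 to 43.7 CPM in FSClow (median 26.1), and stood at 13.2, 33.7, 21.1, 11.9 and 16.7 in FSChi 1 to 5 and at 45.6, 27.6, 18.7, 13.4 and 17.8 in EpCAM 1 to 5. The log2 fold change was 0.18 ± 0.29 for FSClow against EpCAM (edgeR, adjusted p = 0.66, and -0.01 with relative log expression scaling), -0.38 ± 0.34 for FSChi against EpCAM (0.44) and -0.56 ± 0.31 for FSChi against FSClow (0.19).

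The ratio of Itgb4 to Itga6 counts within a library needs no scaling between libraries. It ran from 0.117 to 0.600 in FSClow (median 0.203), and was 1.23, 0.952, 1.06, 1.83 and 1.38 in FSChi 1 to 5 and 2.25, 2.06, 4.38, 6.63 and 4.95 in EpCAM 1 to 5. The groups did not overlap. The mean log2 ratio differed by -3.96 between FSClow and EpCAM, by -1.55 between FSChi and EpCAM and by 2.42 between FSChi and FSClow. The ratios were chosen after the values had been seen and are given as a description, with no test.

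**Figure D2:**
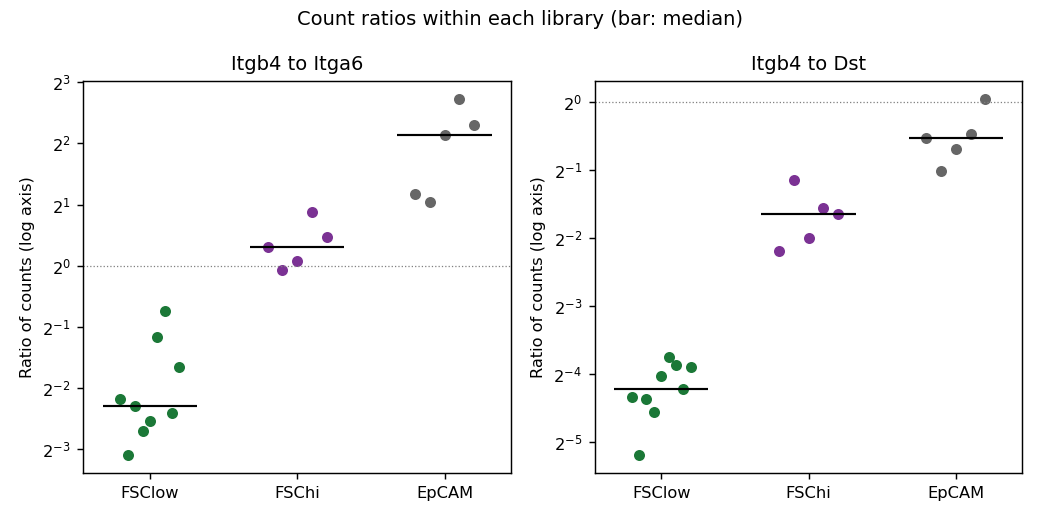
Counts of Itgb4 over counts of Itga6 (left) and of Dst (right) in each library, on a log axis, with a bar at the group median; the dotted line is a ratio of 1. The Itgb4 to Itga6 medians are 0.203, 1.23 and 4.38, and no group overlaps another in either panel.

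Col17a1 (12821, chr19:47646341-47692042), the membrane collagen of the hemidesmosome, was the member whose level was most like that of Trp63. It stood at 129, 61.8, 89.7, 112 and 86.9 CPM in EpCAM 1 to 5, at 14.1, 1.61, 2.42, 5.97 and 18.8 in FSChi 1 to 5, and between 0 and 5.28 (median 1.71) in FSClow. EpCAM lay apart, while FSChi 2 and 3 were within the FSClow range. On the log2 scale Col17a1 differed by -5.67 ± 0.51 for FSClow against EpCAM (edgeR, adjusted p = 4.9e-09), -3.45 ± 0.56 for FSChi against EpCAM (6.9e-05) and 2.22 ± 0.54 for FSChi against FSClow (0.0038).

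Dst (13518, chr1:33907888-34308662), the plakin that ties integrin to keratin, was as high in FSClow as in EpCAM. It ran from 80.8 to 231 CPM in FSClow (median 123), and stood at 148, 115, 133, 124 and 85.1 in EpCAM 1 to 5 and at 74.3, 71.5, 89.4, 64.6 and 71.9 in FSChi 1 to 5. The log2 fold change was 0.05 ± 0.21 for FSClow against EpCAM (edgeR, adjusted p = 0.86), with the sign turned at -0.14 under relative log expression scaling, and -0.63 (adjusted p = 0.042) in the expected counts of the single-library files. FSChi was lower than FSClow, by a log2 fold change of -0.75 ± 0.22 (edgeR, adjusted p = 0.013), and than EpCAM, by -0.70 ± 0.24 (0.035), although the ranges overlapped in both. The call against EpCAM was lost on leaving out FSChi 2 (adjusted p = 0.069), EpCAM 1 (0.061) or EpCAM 2 (0.051). The call against FSClow was lost in the expected counts (-0.54, adjusted p = 0.17). The gene makes an epithelial form and longer forms of nerve and muscle, which counts per gene do not separate. The mean transcript length that RSEM gave for Dst ran from 5646 to 8474 bases in FSClow, from 4898 to 8832 in 4 FSChi files and from 7884 to 8990 in EpCAM.

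The ratio of Itgb4 to Dst counts ran from 0.0273 to 0.0744 in FSClow, from 0.218 to 0.449 in FSChi and from 0.492 to 1.03 in EpCAM. The mean log2 ratio differed by -3.71 between FSClow and EpCAM, by -1.18 between FSChi and EpCAM and by 2.54 between FSChi and FSClow.

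**Figure D3:**
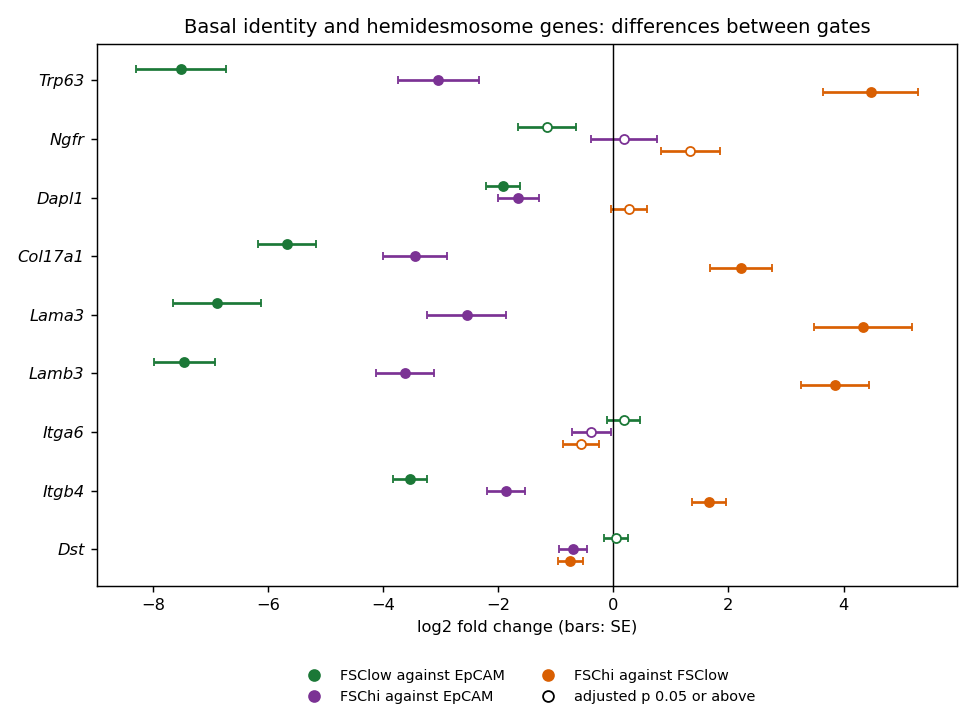
Log2 fold change of each gene in the 3 comparisons, with bars of 1 SE; open circles have an adjusted p of 0.05 or above. Trp63, Lamb3, Lama3 and Col17a1 lie farthest left for FSClow against EpCAM, and Itga6 and Dst lie near 0.

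Compared per transcript length, in TPM, Dapl1 was the highest of the 9 in EpCAM at 151 ± 19 TPM (SD, n = 5) and Lama3 the lowest at 3.36 ± 1.66. Between them came Trp63 (36.9 ± 11.9), Lamb3 (30.6 ± 9.07), Dst (24.9 ± 3.60), Col17a1 (24.1 ± 7.42), Itgb4 (23.6 ± 5.50), Itga6 (15.8 ± 9.76) and Ngfr (7.74 ± 4.70). Neighbours from Trp63 down to Lama3 in that order had overlapping ranges. In FSClow the order began with Dapl1 (43.8 ± 19.4 TPM, n = 9), Dst (23.6 ± 14.6) and Itga6 (14.9 ± 5.80), and Lama3 was listed at 0 in all 9 files. The FSChi order also began with Dapl1 (44.2 ± 8.44, n = 4, without the nearly empty file), Dst (15.0 ± 4.05) and Itga6 (10.4 ± 4.32). These 4 files may lack the library of the FSChi 5 column, which matched no file closely. That column had the highest FSChi level of Col17a1 (18.8 CPM), Lama3 (6.38) and Lamb3 (13.8). The Dst lengths from 4 FSChi files and all fits without the nearly empty file share this limit.

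The calls for FSChi rest partly on which libraries and fits are used. With only the libraries whose column matched its own file (2 of FSChi, 3 of EpCAM), 3 of the 7 genes called lower in FSChi than in EpCAM passed: Col17a1, Lamb3 and Itgb4. The rest kept their sign: Trp63 was at -2.53 (-3.04 in all libraries), Dapl1 -1.21 (-1.65), Lama3 -2.27 (-2.55) and Dst -0.68 (-0.70). This fit has fewer libraries and so less power, and a lost call in it need not mean a changed level. Fitting FSChi with FSClow alone left 1 of the 5 genes called higher, Itgb4, since Trp63, Col17a1, Lama3 and Lamb3 then missed the filter on low counts.

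Within FSChi, the genes did not vary alike. Trp63 and Col17a1 were highest in FSChi 1 and 5, intermediate in FSChi 4 and lowest in FSChi 2 and 3, and Ngfr was highest in FSChi 2 and 3. Lamb3 was highest in FSChi 5 and 2, and Dapl1 in FSChi 1. The basal keratin Krt5 stood at 150, 11.2, 3.76, 35.3 and 185 CPM in FSChi 1 to 5. The small proteoglycan Dcn, which carried most of the sum of 7 stromal markers except in FSChi 3, stood at 81.4, 1.61, 2.02, 114 and 155 CPM, and the summed secretory markers at 4248, 390, 349, 6128 and 11623. Most of the secretory sum in FSChi was Bpifa1, with 84501 counts against 2180 for Muc5b, 70 for Bpifb1 and 23 for Scgb1a1. FSChi 2 and 3, the lowest in Trp63, were thus also the lowest in Dcn and in the secretory sum. The part of these in the FSChi values was not tested. The 7 stromal markers ran in sum from 0.839 to 13.9 CPM in FSClow, from 1.61 to 160 in FSChi and from 90.4 to 175 in EpCAM, where Dcn alone ran from 84.6 to 160 and each of the other 6 had a median of at most 0.982. Itgb4, by contrast, varied little, from 16.2 to 32.1 CPM, and was highest in FSChi 2, where Dcn and the secretory sum were at or near their lowest.

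**Figure D4:**
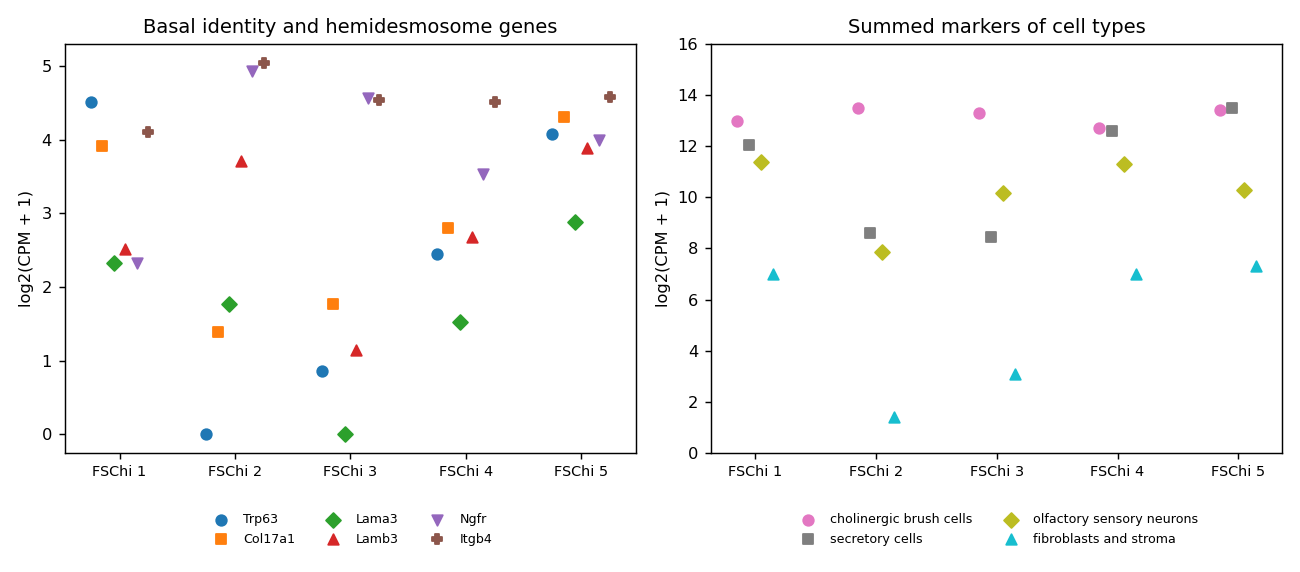
Levels in the 5 FSChi libraries on the scale log2(CPM + 1): 6 of the genes (left) and summed markers of 4 cell types (right). Trp63, Col17a1, the secretory sum and the stromal sum are low in FSChi 2 and 3, where Ngfr is high. The secretory sum is mostly Bpifa1, and the stromal sum outside FSChi 3 is mostly Dcn. The brush cell sum stays between 6775 and 11669 CPM.

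After each group's mean was subtracted, the correlation over the 19 libraries, which share no group difference any more but still share depth and composition, was 0.76 for Trp63 with Col17a1 and 0.60 with Lama3. It was 0.75 for Itgb4 with Dst, 0.69 for Itgb4 with Ngfr, and -0.36 for Trp63 with Ngfr. Itga6 was at -0.45 with Trp63 and -0.49 with Col17a1. FSClow 7 was the highest FSClow library for Itgb4 (15.7 CPM), Dst (231) and Ngfr (14.5), so 1 library feeds both of the correlations with Itgb4. These are descriptions, with no test. Among 9115 genes with at least 10 CPM on average in EpCAM, the genes most like Trp63 over all 19 libraries were Lrp1 (r = 0.98), B4galnt3 (0.977), Gdpd2 (0.976), Dsc3 (0.974), Mpp2 (0.97) and Tns4 (0.97), and Col17a1 came 11th (0.963). After group means were subtracted they were B4galnt3 (0.895), Lrp1 (0.871), Slc47a1 (0.866), Serpinb6a (0.866), Cyp4a12b (0.862) and Fgfbp1 (0.855), and Col17a1 came 29th. Dsc3 encodes a desmosomal cadherin of basal layers. It stood at 41.6 ± 7.89 CPM (SD, n = 5) in EpCAM, 6.54 ± 8.49 in FSChi and 0.319 ± 0.500 (n = 9) in FSClow.

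The other genes of the anchoring complex also differed among themselves. Of 7 tested, 3 were lower and 1 higher in FSClow than in EpCAM (23.1% and 22.0% of all genes were). In FSChi against EpCAM, 2 were lower and 1 higher (12.2% and 13.5% of all genes). In FSChi against FSClow, 2 were higher (15.5% of all genes), of which Fermt1 missed the filter on low counts when these groups were fitted alone. These counts were not tested against those shares. Fermt1, an activator of integrins, and Col7a1, the anchoring fibril collagen, fell with the basal genes: by edgeR the log2 fold change was -6.03 ± 0.66 and -4.13 ± 0.56 in FSClow, and -2.79 ± 0.65 and -2.53 ± 0.63 in FSChi, against EpCAM. Single FSClow libraries carried part of the little that was left there: without FSClow 9 Fermt1 was at -7.41, and without FSClow 8 Col7a1 was at -5.0. Itga3, the chain of another laminin-binding integrin, went the other way, at 109 ± 45.7 CPM in FSClow (n = 9), 87.0 ± 26.9 in FSChi (n = 5) and 37.8 ± 12.1 in EpCAM (SD, n = 5). Its log2 fold change was 1.53 ± 0.30 for FSClow (edgeR, adjusted p = 0.00019) and 1.19 ± 0.33 for FSChi (0.009) against EpCAM. The tetraspanin Cd151, which partners laminin-binding integrins, was lower in FSClow than in EpCAM (-1.05 ± 0.26, edgeR adjusted p = 0.0017) and higher in FSChi (44.8 ± 8.62 CPM, n = 5) than in FSClow (20.7 ± 10.1, SD, n = 9; edgeR adjusted p = 0.0025). The second plakin Plec, at 145 ± 15.2 CPM in FSClow, 175 ± 50.6 in FSChi and 141 ± 43.1 in EpCAM, and Itgb1 did not pass the test in any comparison.

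Of 16 other genes for basement membrane, laminin binding or further integrin chains, 9 passed the filter. Against EpCAM, 2 were higher and 3 lower in FSClow (22.0% and 23.1% of all genes were). In FSChi against EpCAM, 3 were higher and 1 lower (13.5% and 12.2% of all genes). In FSChi against FSClow, 5 were higher and 1 lower (15.5% and 9.30% of all genes). These counts, too, were not tested against those shares. Bcam, a surface receptor for laminin, was lower in FSClow (-6.45 ± 0.39, edgeR adjusted p = 6.4e-12) and in FSChi (-3.05 ± 0.40, adjusted p = 3.2e-06) than in EpCAM. The laminin chain Lamb2 (-5.32 ± 0.57) and the proteoglycan Hspg2 (-3.56 ± 0.53) were lower in FSClow alone by call, and both were higher in FSChi than in FSClow (3.88 ± 0.59 and 3.38 ± 0.55). Lamb2 was at -6.14 and 4.71 without FSClow 6, and the FSChi excess of Hspg2 fell to 2.63 without FSChi 2. The integrin chains Itga9 and Itgb6 were higher than in EpCAM in both gates, by 2.62 ± 0.46 and 0.95 ± 0.35 in FSClow and by 1.73 ± 0.49 and 1.87 ± 0.39 in FSChi. The Itgb6 call in FSClow (adjusted p = 0.031) was lost under relative log expression scaling (0.75, adjusted p = 0.081) and on leaving out any 1 of FSClow 4, 5 or 8, FSChi 3, 4 or 5, or EpCAM 1, 2, 3 or 5 (0.62 to 1.03 over all libraries left out), and the Itga9 call in FSChi on leaving out FSChi 3 (1.41, adjusted p = 0.052).

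Lamb1, a chain of other laminins, was found almost wholly in FSChi. It stood at 26.6, 26.5, 12.4, 14.0 and 71.9 CPM in FSChi 1 to 5, between 0.196 and 2.62 in EpCAM, and between 0 and 3.02 in FSClow. Every FSChi library was above every library of the other groups. Its log2 fold change was 4.71 ± 0.79 against EpCAM (edgeR, adjusted p = 9e-05) and 5.23 ± 0.68 against FSClow (4.2e-06); without FSChi 5 these were 4.06 and 4.64, and without FSClow 6 the second was 5.92. The 7 stromal markers summed to 127, 1.61, 7.39, 128 and 160 CPM in FSChi 1 to 5, and the FSChi 2 sum was all Dcn. In FSChi 2, the shallowest library, a gene with 0 counts may stand at up to 2.41 CPM. The part of stromal cells in the Lamb1 values was not tested. Lamc1, the usual gamma chain partner of Lamb1, was lower in FSChi than in FSClow (-1.35 ± 0.40, edgeR adjusted p = 0.016), a call that was lost in libraries 1 to 5 alone (-1.24, adjusted p = 0.052), in libraries matching their own file (-1.91, adjusted p = 0.068) and in the TPM fits.

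Of 16 other basal cell genes, all tested, 14 were lower and 1 higher in FSClow than in EpCAM, 11 were lower in FSChi than in EpCAM, and 13 were higher and 1 lower in FSChi than in FSClow; their median log2 fold changes were -5.93, -2.89 and 3.40. Over all genes tested, the same calls took 23.1% and 22.0%, 12.2%, and 15.5% and 9.30%. This list of basal cell genes was drawn up with earlier results of these data known and is not independent evidence. Genes low in both gates could pass the filter on low counts through their EpCAM level. Fat2, for 1, missed the filter when FSChi and FSClow were fitted alone. The counts and the median for FSChi against FSClow depend on this. Fat2, a protocadherin of squamous epithelium, differed by -7.80 ± 0.59 (edgeR, adjusted p = 1.8e-10) in FSClow and -3.56 ± 0.53 (1.8e-05) in FSChi, against EpCAM, or -8.62 without FSClow 5 and -4.18 without FSChi 4. Icam1, an adhesion molecule of horizontal basal cells, fell from 168 ± 65.8 CPM in EpCAM (SD, n = 5) to 19.6 ± 14.1 in FSChi and 0.864 ± 1.12 in FSClow, and the water channel Aqp3 from 316 ± 66.4 to 31.7 ± 19.6 and 2.98 ± 3.0. Perp, a desmosomal membrane protein, was lowered less in FSClow, by a log2 fold change of -3.26 ± 0.26 (edgeR, adjusted p = 4.2e-10). Pdpn, a mucin-type surface protein, was at -3.0 ± 0.54 in FSChi against EpCAM (edgeR, adjusted p = 0.00024), or -3.82 without FSChi 4. The exception was Egfr, the receptor of epidermal growth factor, higher in FSClow than in EpCAM (0.75 ± 0.20, edgeR adjusted p = 0.0031) and lower in FSChi than in FSClow (-1.12 ± 0.20, adjusted p = 0.00023).

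**Figure D5:**
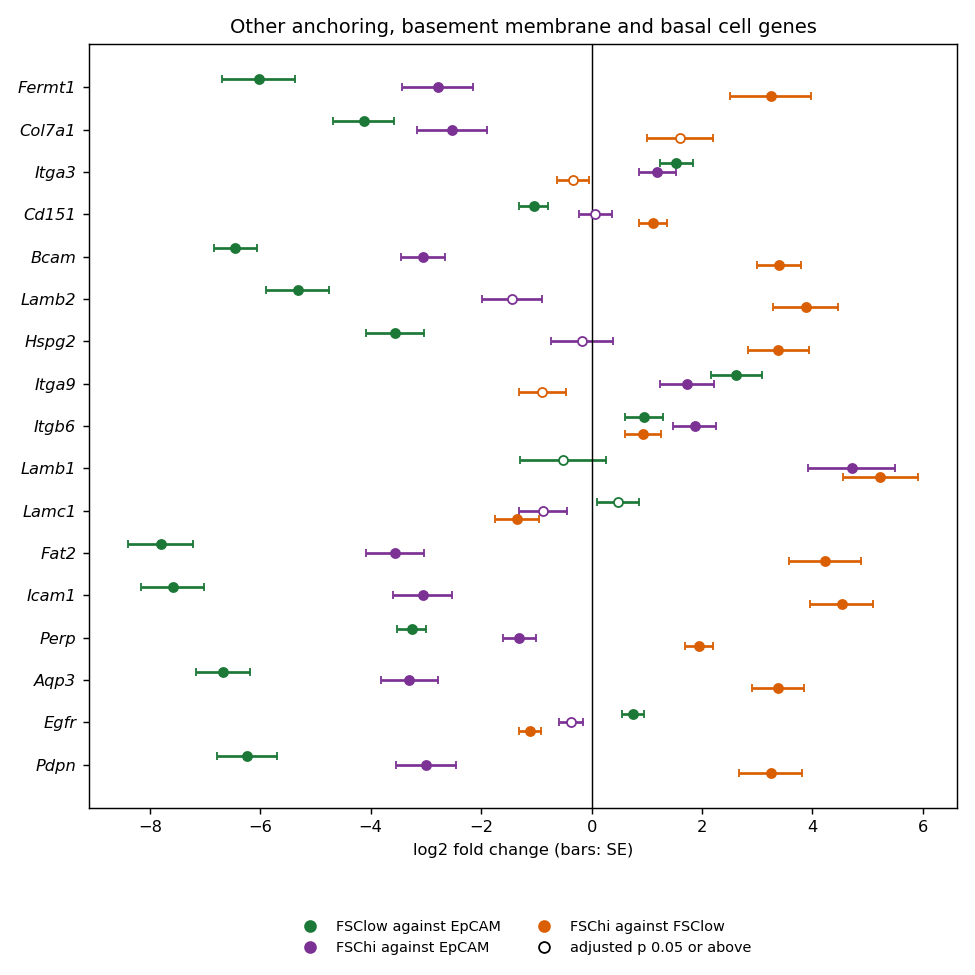
Log2 fold change, with bars of 1 SE, of the other anchoring, basement membrane, integrin and basal cell genes named in the text. All 3 comparisons are shown, and open circles have an adjusted p of 0.05 or above. Most basal cell genes are negative against EpCAM, and Itga3, Itga9, Itgb6, Lamb1 and Egfr have positive values.

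By the spans printed here, 4 of the 9 genes (Trp63, Lama3, Itgb4 and Dst) overlap another gene annotated in GENCODE vM21, each noncoding, a pseudogene or of unclassified type, and 0 overlap a protein-coding gene. Whether the counting used strand is not given in the sources used here.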

How the data were processed

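RNA was sequenced from 19 libraries (9 FSClow, 5 FSChi, 5 EpCAM). The submitters' processing notes name the mm10 build, featureCounts, DESeq2, RSEM 1.2.21, STAR 2.4.2a and Picard 1.1073, with no roles given. The authors deposited whole read counts per Entrez gene and a normalized signal, equal to counts divided by a size factor: 100% of its values came out as whole reads within 0.01. For each library the authors also deposited RSEM expected counts and TPM. No unmapped columns were present. Identifiers without a symbol held 0.982% of counts.

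Counts were fitted with edgeR 4.0.16 in R 4.3.3 (quasi-likelihood test, TMM scaling, filterByExpr by group, 1 term for each group) over all 19 libraries, which share 1 estimate of spread, with Benjamini-Hochberg adjustment over 13340 genes and a threshold of 0.05. The test was checked on simulated data. The SE is the fold change divided by the square root of F. Alternatives were DESeq2 1.42.0, other scalings, no filter, only the groups compared, rounded expected counts, limma 3.58.1 on log2(TPM + 1) or log2(TPM + 0.1), a block for the library number, and leaving out each library. Recovered reads, the fits without the nearly empty file, libraries 1 to 5 without the block, and the count ratios were added after seeing the data. On recovered reads edgeR called 2575 genes higher and 3281 lower in FSClow than in EpCAM.

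The 9 genes and all lists were chosen with earlier results of these data known. Named from each other list were the called genes with the 4 smallest p in a comparison and those called against the list's direction. Likeness to Trp63 is Pearson's r of log2(CPM + 1), with the 6 highest named. Coordinates are from the RefSeq table (GRCm38.p6), 1-based. Of the listed genes, 1 is not reported here.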

Additional observations from a re-analysis of the deposited data

Results flagged for a closer look

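In 27 groups checked (9 genes in 3 groups), 2 libraries stood apart from the others of their group by Dixon's criterion. For normally distributed values, chance passes it in about 1 group in 20. Trp63 was at 1.98 CPM in FSClow 1, from 4 counts, with the other 8 FSClow libraries between 0 and 0.907. Since 5 of the 9 FSClow libraries had 0 counts of Trp63, that rate does not hold for this flag. Dst was at 231 CPM in FSClow 7, with the others between 80.8 and 150; without this library the log2 fold change of Dst for FSClow against EpCAM was -0.19 in place of 0.05.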

How the results depend on the processing

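Trp63, Col17a1, Lama3, Lamb3 and Itgb4 were called lower in FSClow than in EpCAM under all 33 alternatives, and Col17a1 and Lamb3 also in FSChi. In log2(TPM + 1) and log2(TPM + 0.1), 1007 and 574 genes were higher in FSClow than in EpCAM (2931 in counts), 262 and 189 in FSChi than in EpCAM (1797), and 325 and 168 in FSChi than in FSClow (2069), with 665 and 171 lower in the last (1241); no member was then higher (0 and 0) or lower (0 and 0) in FSChi than in FSClow, and log2(TPM + 0.1) left 4 lower in FSChi than in EpCAM. In log2(TPM + 1) without the nearly empty file, these were 1137 and 1145 higher genes, with 1 member higher and 0 lower. Expected counts gave 1165 genes higher in FSChi than in EpCAM, 810 lower in FSChi than in FSClow (731 without the nearly empty file) and 0 members lower there. With no filter 5152 genes were lower in FSClow than in EpCAM (3086). Only libraries matching their own file gave 1048 higher and 790 lower (1624) in FSChi than in EpCAM, with 3 members lower, and 1331 higher and 423 lower against FSClow, with 0 members lower; the 2 groups alone gave 1179 genes and 1 member higher. Leaving out 1 library gave 798 to 1350 genes lower in FSChi than in FSClow, 808 without FSChi 1 and 798 without FSChi 4. With relative log expression scaling, 2244 genes were higher and 3627 lower in FSClow than in EpCAM (2931 and 3086 with TMM), and 1481 and 1978 in FSChi (1797 and 1624), the median over all genes moving from 0.05 and -0.02 to -0.14 and -0.14.

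Signs of log2 fold changes turned mostly for values near 0. For Itga6 in FSClow against EpCAM these were -0.01 (relative log expression, DESeq2), -0.13 and -0.16 (expected counts, all and without the nearly empty file), and -0.07 to 0.44 on leaving out 1 library. For Dst in FSClow against EpCAM they were -0.14 (relative log expression, DESeq2), -0.04 (upper quartile, no filter, groups compared), -0.63 and -0.66 (expected counts, all and without the nearly empty file, both passing the test), -0.26, -0.28 and -0.26 (the 3 TPM fits), -0.31 (libraries 1 to 5, with and without the replicate block), -0.03 (recovered reads) and -0.19 to 0.12 on leaving out 1 library. Ngfr in FSChi against EpCAM was -0.49 and -1.1 in TPM, -0.06 in libraries matching their file, and -0.09 to 0.38 on leaving out 1. Itga6 there was 0.39 in libraries matching their file, and Dapl1 in FSChi against FSClow was -0.97 and -1.62 in TPM. Called values that turned, without passing the test, were Itga3 (-0.50) and Itgb6 (-0.12) in FSChi against EpCAM and Perp (-0.45) in FSChi against FSClow in log2(TPM + 0.1), and Cd151 in FSChi against FSClow in both TPM fits (-0.15, -0.76). The cause was not tested.

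Same-number libraries showed little likeness: 3 of 15 pairs correlated over 0.1 (range -0.213 to 0.442), and 3 of 15 correlated best with their own number. Because 5 columns correlated best with the file of another library, the numbers may be out of order. This check therefore cannot exclude a pairing. With the replicate block 425 genes and 0 members were lower in FSChi than in FSClow, beside 489 and 0 in the same libraries 1 to 5 without it. The block also brought Ngfr past the threshold (-1.74, adjusted p = 0.032, for FSClow against EpCAM; 1.98, adjusted p = 0.044, for FSChi against FSClow), and Lamc1 missed it (-1.25, adjusted p = 0.066). In the shallowest library, FSChi 2, 3 counts are 2.41 CPM, the limit for genes with 0 counts there.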
